A study of Mus musculus with 6 samples.

Results

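Antioxidant and glutathione enzyme genes were examined in EPC, EPC_acLDL and EPC_Late, which are 3 cell lines of the mouse. The members were all probes whose gene name on the array is that of a peroxiredoxin, glutathione peroxidase, glutathione S-transferase, thioredoxin family protein, superoxide dismutase, glutaredoxin, metallothionein 1 or 2, heme oxygenase, catalase, Nqo1 or a subunit of glutamate-cysteine ligase. These were 110 probes for 76 gene names, out of 25697 probes for 18138 gene names. The rule itself reads gene names and no measured value. The EPC line (passages 3 to 6) was grown from lung cells of athymic nude mice, sorted by flow cytometry on surface markers that included Flk-1. The EPC_acLDL line (also passages 3 to 6) came from EPC cells that had taken up fluorescent acetylated low density lipoprotein, and EPC_Late (passages 16 to 20) was the selected line carried on in culture. No agent was given to one line and withheld from the others at harvest, and all grew in a mouse endothelial medium with serum. The sorted cells were started at low oxygen and moved to a normoxic incubator once small colonies had formed. Each line was a single line read on 2 Illumina MouseRef-8 v2.0 arrays. The study's methods speak of separate experiments run in duplicate, and a figure legend of several samples in duplicate. This does not settle whether the arrays of a line are separate cultures or repeats of one. The p-values measure only the spread between these arrays, which may be technical.

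Cells dispose of superoxide through superoxide dismutases, which make hydrogen peroxide, and of hydrogen peroxide and lipid peroxides through catalase, peroxiredoxins and glutathione peroxidases. Peroxiredoxins are recharged mostly by thioredoxin and thioredoxin reductase, and glutathione peroxidases by the tripeptide glutathione, whose synthesis starts with glutamate-cysteine ligase. Glutathione S-transferases attach glutathione to reactive compounds, and NQO1 and heme oxygenase 1 are classical targets of the transcription factor NRF2. Endothelial cells meet oxidants from blood and from their own oxidases, and in culture from the oxygen of the incubator.

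The deposited value was the mean bead intensity of a probe on a linear scale, with a detection p-value, the fraction of the negative controls that reached the probe's brightness. A probe was taken as above background on an array when that p-value was below 0.05, which by construction about 5% of probes without a target reach. The dimmest probe above background had an intensity between 416.5 and 468.6, depending on the array. Of all probes, 9.08% passed this limit in duplicate, on both arrays of some line, and only these were compared between lines. Transcripts that most cultured cells hold in quantity did not all pass. In a list of 13 such genes, made after their values had been seen, Actb, Ppia, Tuba1b, Eef1a1 and Eno1 had a probe above background on all 6 arrays, while Gapdh, Ldha, Pkm2, B2m, Vim, Fth1, Ftl1 and Tpt1 had none on any array. Among 12 endothelial markers, only Kdr, the gene of Flk-1, was above background (intensities 548.7 to 609.3), and the probes of Pecam1, Cdh5, Tek, Tie1 and the others were at background on all 6 arrays. In the lists for other cell types, Col1a2 and 1 Acta2 probe (of 10 fibroblast and smooth muscle genes), Cdh1 (of 7 lung epithelial genes found) and 1 Csf1r probe (of 8 leukocyte genes) passed, at intensities of 431.5 to 627.5. A probe at background is therefore reported here as dim, and not as a gene that was off. That the RNA is of mouse cells rests on the labels, and what the bright probes bound was not checked, since the files hold no sequences. Each intensity below is that of a probe under its gene's name.

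Most antioxidant probes were dim. In duplicate, 9 of the 110 member probes (8.18%) were above background, beside the 9.08% of all probes. On all 6 arrays, 6 members (5.45%) were above background, beside 6.56% of all probes, and on no array 98 members (89.1%), beside 88.8%. Between 6 and 10 members were above background on a single array, where the threshold alone gives 5.5 of 110. The members compared between lines were Prdx2, Prdx6, Gpx1, Sod2, Txnl4a, Txndc11, Gsta4, Gstm5 and Nqo1, with 1 probe each.

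**Figure D1:**
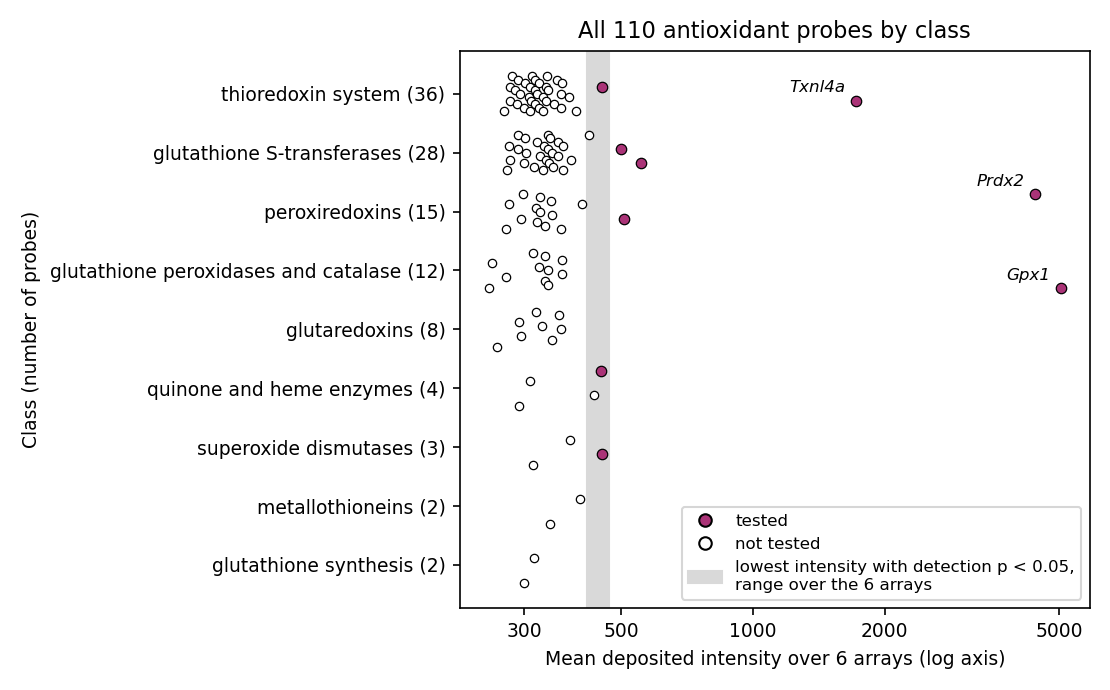
Mean deposited intensity over the 6 arrays (log axis) of each of the 110 member probes, 1 point per probe, by class, with filled points for the 9 probes compared between lines and a grey band for the dimmest intensity above background (416.5 to 468.6). Gpx1, Prdx2 and Txnl4a stand far above the band, the other 6 compared probes lie at or just above the band, and nearly all other probes lie below it.

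By class, the thioredoxin system had 2 of 36 probes compared, the glutathione S-transferases 2 of 28, the peroxiredoxins 2 of 15, and the glutathione peroxidases with catalase 1 of 12. One of the 3 superoxide dismutase probes and one of the 4 probes for Nqo1 and the heme oxygenases were compared. None of the 8 glutaredoxin probes, of the 2 probes for glutamate-cysteine ligase (Gclc and Gclm) or of the 2 for metallothioneins was. The 101 probes that were not compared had intensities from 218.4 to 486.5. Among them were the probes for several widely expressed enzymes: Sod1, the cytosolic superoxide dismutase (276.7 to 338.2 over the 6 arrays), both probes of Prdx1 (272.8 to 338.7), both of Gpx4, which reduces lipid peroxides in membranes (301.8 to 406.2), the single probe of Txnrd1, cytosolic thioredoxin reductase (343.1 to 385.0), all 3 of Txn1, the single probes of Cat, Txnip and Hmox1, and both of Gstm1. Above background on 1 or 2 arrays, and so just outside the limit, were Mt2 (453.6 on 1 EPC_acLDL array, 346.2 to 433.7 on the others), 1 of 3 Gstm2 probes (436.0 on 1 EPC_acLDL array) and Hmox2, the constitutive heme oxygenase (456.0 on 1 EPC array and 486.5 on 1 EPC_Late array). Just inside it, Nqo1, Sod2 and Txndc11 were above background on 4 of 6 arrays, with intensities of 396.5 to 495.6.

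Prdx2 and Txnl4a differed between EPC_Late and the early lines, in opposite directions. The probe of Prdx2 was higher in EPC_Late and that of Txnl4a was lower, and no member passed the test between EPC_acLDL and EPC. The tests were made in one limma fit over all 2333 probes compared, after background correction from the detection p-values, an offset of 16 and quantile normalization on the log2 scale, with Benjamini-Hochberg adjustment over all of them and a threshold of 0.05. Of the 9 members, 1 was called higher and 1 lower in EPC_Late than in EPC (11.1% each), where 10.9% of all probes compared were called higher and 13.0% lower. Between EPC_Late and EPC_acLDL it was again 1 in each direction (Prdx2 and Txnl4a), beside 9.34% of all probes higher and 11.5% lower. Between EPC_acLDL and EPC 0 of 9 were called, beside 3.30% of all probes, and 1 of the 9 (Nqo1) had an unadjusted p below 0.05, beside 20.1% of all probes. The methods' t-test, the test that the study's methods name, called 0 of 9 in that comparison before adjustment and 0 after it. These shares are near those of all probes, and with 9 members a single probe moves a share by 11.1 percentage points.

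Prdx2 is a cytosolic peroxiredoxin, an abundant enzyme that reduces hydrogen peroxide with electrons from thioredoxin. The intensity of its probe (ILMN_2773554) was 3637 and 3293 in EPC, 3914 and 4531 in EPC_acLDL, and 5298 and 5743 in EPC_Late. Both EPC_Late arrays lay above all 4 others, while the normalized values of EPC and EPC_acLDL overlapped. The normalized log2 signal was 11.71 ± 0.08 in EPC, 11.79 ± 0.14 in EPC_acLDL and 12.40 ± 0.06 in EPC_Late (SD, n = 2 each). EPC_Late was thus 1.61-fold above EPC, by 0.69 on the log2 scale (SE 0.13, limma adjusted p = 0.00943), and 1.53-fold above EPC_acLDL, by 0.61 (SE 0.13, limma adjusted p = 0.0168). Between EPC_acLDL and EPC the log2 difference was 0.08 (95% confidence interval -0.23 to 0.38, adjusted p = 0.783 from limma). The difference to EPC kept its direction in every fit without 1 array, at 0.63 to 0.75, but missed the threshold without EPC replicate 2 (adjusted p = 0.0537 from limma) and without EPC_Late replicate 2 (adjusted p = 0.0561 from limma). The difference to EPC_acLDL missed it without any 1 of the 4 arrays of these lines (adjusted p of 0.0515 to 0.105 from limma) and with the arrays only shifted to a common 75th percentile (0.42, adjusted p = 0.0838 from limma) or not normalized (0.41, adjusted p = 0.0811 from limma). In these last settings the median of all probes compared moved by -0.15 and -0.16. As the RNA came from whole cultures, more cells with the transcript and more transcript per cell cannot be told apart. Of the markers of other cell types, Col1a2, a fibroblast collagen gene near the limit of detection, was also called in EPC_Late against EPC (431.5 and 456.5 in EPC, 521.5 and 530.8 in EPC_Late, log2 difference 0.43, limma adjusted p = 0.047), and its part in the result was not tested. The summed intensity of the 15 fibroblast and smooth muscle probes, 12 of them at background on every array, was 5038 and 5367 in EPC, 5108 and 5618 in EPC_acLDL, and 5432 and 5786 in EPC_Late. The EPC_Late sums lay above both EPC sums and overlapped with those of EPC_acLDL. The sum of the 7 lung epithelial probes, 6 of them at background, was 2324 and 2446 in EPC, 2434 and 2513 in EPC_acLDL, and 2609 and 2699 in EPC_Late, above all 4 others. Cdh1, the probe of that list above background, read 538.8 and 560.9 in EPC_Late, below its 623.8 and 562.4 in EPC_acLDL. The endothelial sum was 4405 to 5133 and the leukocyte sum 3248 to 3757 over the 6 arrays, and both overlapped between EPC_Late and the other lines. These sums are of intensities that were not normalized, on arrays whose median intensity ran from 304.6 to 358.7, and their part in the result was not tested. The other 4 marker probes compared (Kdr, Acta2, Cdh1 and Csf1r) were not called in any comparison.

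Txnl4a carries a thioredoxin fold in its name and structure, but is known as a subunit of the spliceosome and not as an antioxidant enzyme. Its probe ILMN_3114365 had intensities of 1836 and 1904 in EPC, 1869 and 2123 in EPC_acLDL, and 1323 and 1233 in EPC_Late. Both EPC_Late arrays lay below all 4 others. The normalized log2 signal was 10.68 ± 0.08 in EPC, 10.52 ± 0.17 in EPC_acLDL and 9.91 ± 0.14 in EPC_Late (SD, n = 2 each). In EPC_Late it was 1.71-fold lower than in EPC, at -0.77 on the log2 scale (SE 0.14, limma adjusted p = 0.00945), and 1.53-fold lower than in EPC_acLDL, at -0.61 (SE 0.14, limma adjusted p = 0.0252). Between EPC_acLDL and EPC the log2 difference was -0.16 (95% confidence interval -0.50 to 0.18, adjusted p = 0.574 from limma), and it turned to 0.02 with the 75th percentile shift and to 0.11 without normalization, where the median of all probes compared moved to 0.17 and 0.25. The call against EPC was lost without EPC_Late replicate 2 (-0.67, adjusted p = 0.0604 from limma). The call against EPC_acLDL was lost without any 1 of the 4 arrays of these lines (adjusted p of 0.0609 to 0.144 from limma) and when all 25697 probes were tested (adjusted p = 0.0557 from limma).

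**Figure D2:**
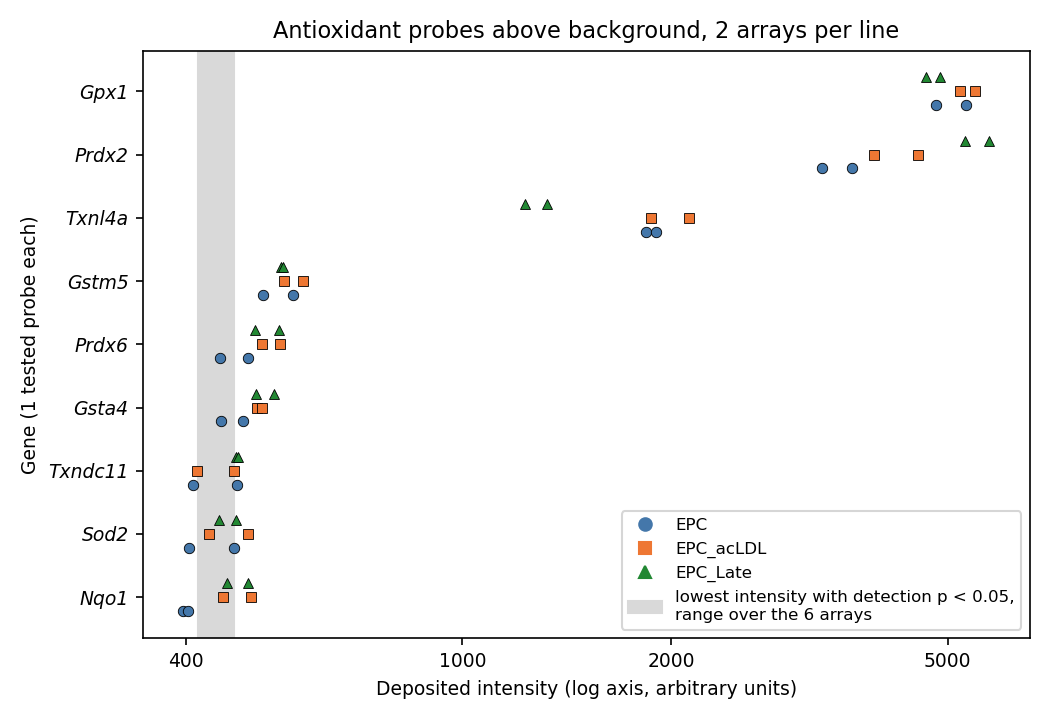
Deposited intensity (log axis) of the 9 compared probes on each of the 6 arrays, with circles for EPC, squares for EPC_acLDL and triangles for EPC_Late, and a grey band for the dimmest intensity above background (416.5 to 468.6). The EPC_Late triangles stand to the right of the other lines for Prdx2 and to the left for Txnl4a, and the 2 EPC circles of Nqo1 lie left of the band.

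The other peroxide-reducing members compared were Gpx1 and Prdx6. Gpx1, the cytosolic selenium-dependent glutathione peroxidase, read 5309 and 4818 in EPC, 5480 and 5208 in EPC_acLDL, and 4875 and 4652 in EPC_Late. The 3 lines lay close together, at normalized log2 signals of 12.28 ± 0.06, 12.15 ± 0.003 and 12.14 ± 0.07 (SD, n = 2 each). Its log2 difference to EPC was -0.13 in EPC_acLDL (95% confidence interval -0.40 to 0.14) and -0.14 in EPC_Late (-0.41 to 0.13), and without normalization the first became 0.08, below the median of all probes in that setting (0.25). None of its comparisons passed (lowest adjusted p = 0.467 from limma), and the intervals leave out a difference of 1.5-fold or more in either direction. Prdx6, which also reduces phospholipid peroxides, read 448.3 and 491.4 in EPC, 514.9 and 546.6 in EPC_acLDL, and 502.0 and 544.2 in EPC_Late. Its largest log2 difference was 0.22 between EPC_acLDL and EPC (95% confidence interval -0.10 to 0.54, adjusted p = 0.397 from limma).

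Sod2 is the manganese superoxide dismutase of mitochondria. Its probe read 404.3 and 468.4 in EPC, 431.7 and 490.6 in EPC_acLDL, and 446.1 and 472.6 in EPC_Late, at the limit of detection. The normalized values of all 3 lines overlapped, and no comparison passed (adjusted p of 0.749 to 0.987 from limma). The log2 differences of -0.10 to -0.01 rest on single arrays: without 1 array the difference between EPC_Late and EPC ran from -0.31 to 0.11, and that between EPC_acLDL and EPC ran from -0.21 to 0.21. The probe was compared because both EPC_acLDL arrays passed the detection limit, with 1 of 2 in each other line. Sod3, the extracellular form, was at background on all 6 arrays (334.7 to 419.5).

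Nqo1 is a quinone reductase. Its probe ILMN_2726371 read 396.5 and 403.1 in EPC, both at background. It read 452.0 and 495.6 in EPC_acLDL and 457.9 and 491.9 in EPC_Late, all 4 above background, so that the EPC arrays lay below all others. The probe was compared because it passed the detection limit in EPC_acLDL and EPC_Late, the lines where it is higher, so that a difference to EPC was in part required by the filter. The mean of EPC_acLDL was 1.14-fold and that of EPC_Late 1.08-fold the dimmest signal that passed on the EPC arrays. The filter kept the probe because both arrays of these lines reached such a signal. These folds were thus largely fixed by the filter and are no measure of the difference to EPC. Neither line passed the test against EPC (limma adjusted p = 0.0985 and 0.0531). The first passed with the 75th percentile shift (limma adjusted p = 0.0408) and without normalization (limma adjusted p = 0.0235), and the second without normalization (limma adjusted p = 0.0304) and without EPC replicate 1 (limma adjusted p = 0.0418). These scalings moved the median of all probes compared as well, to 0.17 with the shift and 0.25 without normalization for EPC_acLDL against EPC, and to 0.09 without normalization for EPC_Late against EPC, and no rise of Nqo1 is read from them. EPC_Late and EPC_acLDL were at a log2 difference of -0.07 from each other (95% confidence interval -0.43 to 0.29).

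Of the glutathione S-transferases, Gsta4, which is known to act on the lipid peroxidation product 4-hydroxynonenal, read 448.9 and 483.5 in EPC, 505.6 and 514.5 in EPC_acLDL, and 504.7 and 535.4 in EPC_Late. Gstm5, of the mu class, read 516.1 and 570.8 in EPC, 588.6 and 552.8 in EPC_acLDL, and 547.2 and 551.4 in EPC_Late. Neither passed in any comparison. The largest log2 difference was 0.14 for Gsta4 (EPC_Late against EPC, 95% confidence interval -0.17 to 0.44) and -0.26 for Gstm5 (same comparison, -0.65 to 0.14). Txndc11, a protein of the endoplasmic reticulum known to bind dual oxidases, read 409.2 and 474.4 in EPC, 414.7 and 469.2 in EPC_acLDL, and 471.7 and 474.8 in EPC_Late, and was not called in any comparison (lowest adjusted p = 0.466 from limma). It was compared because both EPC_Late arrays passed the detection limit, with 1 of 2 in each other line, and no size is read from its differences.

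**Figure D3:**
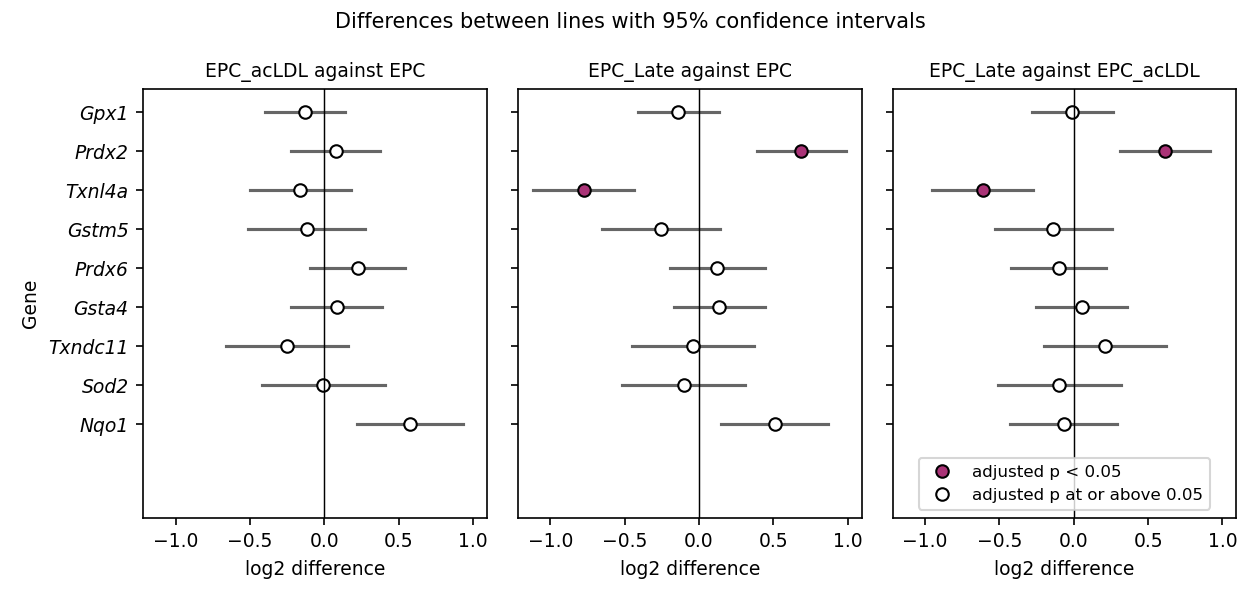
Log2 difference of the 9 compared probes between the lines (x axis, first-named line minus second), with 95% confidence intervals from the limma fit, for EPC_acLDL against EPC, EPC_Late against EPC and EPC_Late against EPC_acLDL, where the Nqo1 points against EPC use a line at background. Filled points passed an adjusted p of 0.05, which only Prdx2 (0.69 and 0.61) and Txnl4a (-0.77 and -0.61) did, in the comparisons with EPC_Late.

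The 9 members had a median log2 difference of -0.01 for EPC_acLDL against EPC, of -0.04 for EPC_Late against EPC and of -0.07 for EPC_Late against EPC_acLDL, beside 0.01, 0.01 and 0.00 for all probes compared. Their median size regardless of sign was 0.13, 0.14 and 0.10, beside 0.19, 0.25 and 0.23. The comparisons share arrays, so that they are not independent of each other. Replicate arrays of a line had a median SD of 0.12, 0.14 and 0.08 over the members in EPC, EPC_acLDL and EPC_Late, beside 0.12, 0.10 and 0.12 over all probes compared.

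Probes of the same gene did not show the same signal where 1 of them was compared. Of the 23 member genes with more than 1 probe, 5 had a probe that was compared, and in each of them the other probes were at background on all 6 arrays. For Prdx2 the other 2 probes read 317.1 to 351.3 (ILMN_2638354) and 261.8 to 293.1 (ILMN_1242829), against 3293 to 5743 for the probe that rose in EPC_Late. For Txnl4a they read 313.0 to 351.9 (ILMN_2478523) and 282.7 to 358.2 (ILMN_2634749), and a probe filed under the older name Txnl4 read 252.6 to 329.7, against 1233 to 2123. The second probes of Prdx6 and Nqo1 and the other 2 of Txndc11 were likewise dim. The calls thus rest on 1 of 3 probes for Prdx2 and, with the one under the older name, on 1 of 4 for Txnl4a. Which transcripts or related loci each probe can bind was not tested.

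**Figure D4:**
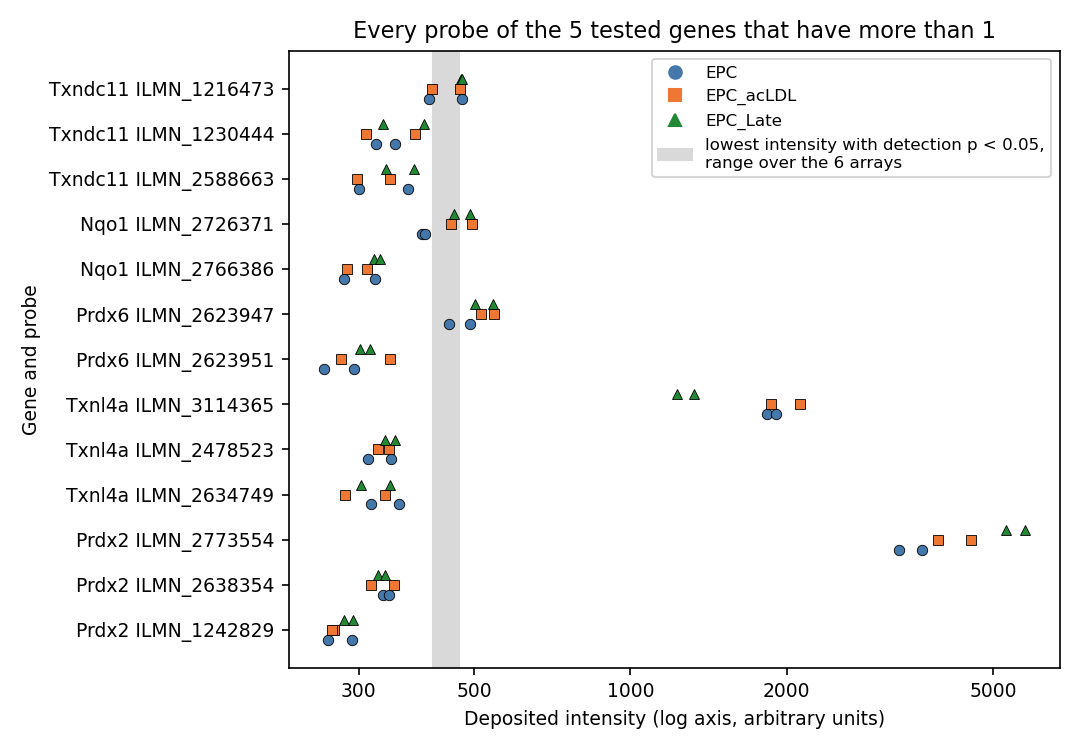
Deposited intensity (log axis) on each of the 6 arrays for every probe filed under the names of the 5 compared genes that have more than 1 probe, with symbols and grey band as for the 9 compared probes. In each gene 1 probe reaches or passes the band (416.5 to 468.6), with Prdx2 up to 5743 and Txnl4a up to 2123, and the others stay below it.

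A further 50 genes of glutathione use, NRF2 response, NADPH supply and protein disulfide exchange, which the name rule does not take in, were read in the same fit. Of these, 47 were on the array with 71 probes, 65 of the probes (91.5%) were at background on every array, beside 88.8% of all probes, and 6 were compared: Hagh, Mgst2, Blvrb, Nqo2, Ccs and Pdia3. None was called between EPC_acLDL and EPC, 2 rose and 0 fell in EPC_Late against EPC, and 1 rose and 0 fell in EPC_Late against EPC_acLDL. Of all probes compared, 3.30% were called in the first comparison, 10.9% rose and 13.0% fell in the second, and 9.34% rose and 11.5% fell in the third. The median log2 difference of the 6 was -0.05, 0.49 and 0.42 in these comparisons, beside 0.01, 0.01 and 0.00 for all probes compared. The list was chosen with earlier results of these data known, and no rise of the set is read from these values. No probe of Gss (glutathione synthetase), Nfe2l2 (NRF2), Keap1 or Slc7a11 (the cystine transporter) was above background on any array.

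Hagh, which hydrolyses S-lactoylglutathione and so returns free glutathione, read 727.0 and 762.7 in EPC, 1024 and 1094 in EPC_acLDL, and 1158 and 1236 in EPC_Late. It was higher in EPC_Late than in EPC by 0.96 on the log2 scale (SE 0.12, limma adjusted p = 0.00233). In the fits without 1 array this difference was 0.90 to 1.03. With other background corrections and scalings it was 0.62 to 1.02. Between EPC_acLDL and EPC the difference was 0.56 (SE 0.12, adjusted p = 0.0654 from limma) and did not pass, although the lines did not overlap. It passed in 7 of 17 alternative settings and ran from 0.34 to 0.81 over all settings. Some of these settings moved the median of all probes compared as well. Pdia3, a disulfide isomerase of the endoplasmic reticulum, read 35037 and 32623 in EPC, 47133 and 42511 in EPC_acLDL, and 45599 and 46421 in EPC_Late. Its log2 difference between EPC_Late and EPC was 0.61 (SE 0.13, adjusted p = 0.0158 from limma), which missed the threshold without either EPC array (adjusted p = 0.0535 and 0.0822 from limma), without EPC_Late replicate 2 (adjusted p = 0.0865 from limma) and with the 75th percentile shift (0.37, adjusted p = 0.103 from limma). Of the probes of Nqo2, a relative of Nqo1, ILMN_1247930 and ILMN_2968729 were at background on every array (293.4 to 354.5). The remaining Nqo2 probe, ILMN_2968731, read 581.4 and 577.8 in EPC, 506.2 and 597.9 in EPC_acLDL, and 725.6 and 670.9 in EPC_Late. It was higher in EPC_Late than in EPC_acLDL by 0.82 (SE 0.18, adjusted p = 0.023 from limma), a call lost without EPC_acLDL replicate 1 (limma adjusted p = 0.124) or either EPC_Late array (limma adjusted p = 0.117 and 0.0527). Without background correction the difference was 0.36 and was still called. Blvrb, a biliverdin reductase, read 630.5 and 762.9 in EPC, 687.1 and 836.1 in EPC_acLDL, and 958.4 and 1325 in EPC_Late. Its log2 differences were 1.02 between EPC_Late and EPC (SE 0.30, limma adjusted p = 0.0541) and 1.06 between EPC_Late and EPC_acLDL (limma adjusted p = 0.052), and neither passed. Both passed with the replicate number as a block (limma adjusted p = 0.0051 and 0.00651), with limma-trend and robust estimation together (adjusted p = 0.00261 and 0.00213), without background correction (limma adjusted p = 0.00837 and 0.00758), with an offset of 50, with the 75th percentile shift, with the stricter detection filter and without EPC_Late replicate 1. Neither passed without the detection filter (limma adjusted p = 0.131 and 0.124), with the methods' t-test or with the 4 arrays of the lines compared alone, and without EPC_Late replicate 2 they were 0.63 and 0.67 (limma adjusted p = 0.225 and 0.216). Without background correction they were 0.64 and 0.66. Mgst2, a microsomal glutathione S-transferase, and Ccs, the copper chaperone of Sod1, read 459.3 to 657.5 and were not called.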

How the data were processed

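RNA of the 3 lines was labelled and hybridized to 6 arrays, 2 per line. The authors summarized bead intensities per probe in BeadStudio, corrected for local background, and deposited linear intensity values that were not normalized. A detection p-value stands beside each deposited intensity. The genome build is not given in the sources used here, and no coordinates are given.

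From these, limma 3.58.1 (R 4.3.3) was run as neqc (offset 16), a detection filter (below 0.05 in duplicate in any line, 2333 of 25697 probes kept), and a single lmFit and eBayes model of the 6 arrays with line as the only term. Benjamini-Hochberg adjustment covered all 2333 probes. Member names were spelled after mouse genes of GRCm38.p6 (95 probes matched by symbol, 15 by synonym). All compared members are named with their values; partner and marker genes come from lists. The members and lists were chosen with earlier results of these data known. The alternatives were other background corrections, scalings, detection filters and variance models, the replicate number as a block, 4 arrays alone, the methods' t-test, fold thresholds and each array left out. The setting named limma-trend had the variance trend and robust estimation switched on together. The steps were tested on simulated data. The number of arrays limits the precision.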

Additional observations from a re-analysis of the deposited data

How the results depend on the processing

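The number of members called between EPC_acLDL and EPC (0) became 1 (Nqo1) with the 75th percentile shift and 1 without normalization, which moved the median of all probes to 0.17 and 0.25, and Nqo1 passed the detection limit only in the lines where it is higher. Between EPC_Late and EPC (2) it was 3 without normalization (with Nqo1), 3 without the detection filter (with Gstp2, at background on every array), 0 with the methods' t-test after adjustment, 0 with a fold of at least 2 added, and 0 to 3 with single arrays left out, the lowest without EPC_Late replicate 2. Between EPC_Late and EPC_acLDL (2) it was 1 with the shift, 1 without normalization, 1 without the detection filter, 1 and 0 with the methods' t-test before and after adjustment, 0 with a fold of at least 2, and 0 to 2 with arrays left out, 0 without any 1 of the 4 arrays compared. With a fold of at least 1.5 added, 0, 2 and 2 stayed. The calls of partner genes (0, 2 and 1) moved to 1 for EPC_acLDL against EPC (Hagh in each case) with the shift, without normalization, without background correction, with an offset of 50 and no detection information, with the stricter detection filter of 0.01, with limma-trend and with the unadjusted methods' t-test. For EPC_Late against EPC they were 3 (with Blvrb) with the replicate block, with limma-trend, with the stricter filter, without normalization, without background correction and with the offset of 50, 0 with that test adjusted, 0 with a fold of at least 2, and 1 to 3 with arrays left out. For EPC_Late against EPC_acLDL they were 4 with the stricter filter, without background correction, with the offset of 50 and with limma-trend, 2 with the shift and with the replicate block, 0 with the methods' t-test both ways and with a fold of at least 2, and 0 to 1 with arrays left out.

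With the replicate block 0, 2 and 2 members were called. The deviations of same-numbered arrays correlated at 0.08, 0.02 and 0.03 between lines, so the numbers were not taken to pair the arrays. Where 1 array of a line remained, its spread was taken from the others, and the same 2333 probes were then tested. Of 747 single-gene values under an alternative, none that was called in either setting changed sign. A further 41 that were called in neither did so, with reported differences of at most 0.16 in size. Not all of the 747 values could change sign. Removing or tightening the detection filter, limma-trend, the replicate block and the methods' t-test left the difference itself unchanged. Fitting only the arrays of the lines compared left it unchanged as well. The sign count thus tests only the other background corrections, the scalings and the arrays left out. The cause of the lost and gained calls was not tested. Signal over background limits the dim members, of which Prdx6, Gsta4, Gstm5, Nqo1, Sod2 and Txndc11 read at most 588.6.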
